A study of Mus musculus with 8 samples.

Results

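Hedgehog and parathyroid hormone-related protein (PTHrP) signalling was examined through 9 genes in RNA from mouse knee joints: Ihh, Pthlh, Pth1r, Gli1, Gli2, Gli3, Ptch1, Smo and Hhip. They were taken by gene name from the table of 20681 genes, and all 9 were present and passed the filter on low values that left 14949 genes for testing. The table holds 8 libraries, 4 labelled control and 4 labelled knockout, made from poly-A RNA of whole knee joints. Per the labels, the joints came from Acan-Cre;Loxl2 fl/fl mice, in which Cre is made where aggrecan is made, chiefly in cartilage, and can remove the floxed gene of lysyl oxidase-like 2, an enzyme that crosslinks collagen. That genotype is stated for all 8 samples together, while the library names carry LOXL2wt and Vehicle for the control group and LOXL2ko and KO for the other. What the samples labelled knockout received in place of vehicle is not stated in the sources used here. Every library name in both groups also carries DMM, an abbreviation in common use for a surgical destabilisation of the meniscus that injures the joint, so by their names no uninjured joint is included. Age, sex and time after injury are also not stated, and nothing in the labels says whether a library is 1 animal or a pool, so p-values measure the spread between these libraries.

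In cartilage, Indian hedgehog is secreted by chondrocytes that are leaving the proliferating state. It binds the receptor PTCH1, which releases the membrane protein SMO from inhibition and changes the GLI transcription factors at the primary cilium from repressors to activators. PTHrP, encoded by Pthlh, signals through the receptor PTH1R to hold chondrocytes back from hypertrophy, and hedgehog signalling in turn maintains Pthlh expression, so that the pathways form a feedback loop in the growth plate. Ptch1, Hhip and Gli1 are themselves classical transcriptional targets of hedgehog signalling.

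The libraries held 13991000 to 17411617 reads assigned to genes, and no pair within a group agreed within counting error (chi-square per degree of freedom of at least 24.99). Values below are normalised read counts unless another scale is named, means are given ± SD with n = 4 per group, and differences are log2 values of the libraries labelled knockout minus control. Loxl2 itself went against the labels. Its normalised read count was 282, 349, 1135 and 311 across control replicates 1 to 4, beside 893, 1468, 960 and 1518 in the libraries labelled knockout (log2 difference 1.44, limma adjusted p = 0.0294). Control replicate 3 lay above 2 libraries labelled knockout. The call was lost with edgeR (adjusted p = 0.0669), with DESeq2 (0.0659) and with the replicate number as a block in limma (0.0513). It was also lost without control replicate 1, 2 or 4, and without replicate 2 or 4 of the libraries labelled knockout (limma adjusted p of 0.0665 to 0.0849). The groups are therefore named by label only. The tissues of a knee were present in every library, with aggrecan (Acan) at 52.3 or more, Col1a1 at 13234 or more, the lubricin gene Prg4 at 10288 or more and the muscle gene Ckm at 69581 or more.

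Of the 9 genes, 4 were called higher in the libraries labelled knockout by limma at an adjusted p under 0.05, namely Pth1r, Gli3, Smo and Ptch1, and 0 were called lower. That is 44.4% of the genes, while 11.6% of all genes tested were called higher and 23.2% were called in either direction. The same 4 genes had groups that did not overlap, again 44.4%, beside 11.7% of all genes tested with higher, separate groups and 25.1% with groups separate in either direction. All 9 differences were above 0, with a median of 0.92, whereas the median over all genes tested was 0.00 and 50.1% of them were above 0. By limma the hedgehog ligand gene Ihh had the smallest difference (0.18), and the PTHrP receptor gene Pth1r (1.49) and Gli3 (1.46) the largest, with Gli3 ahead of Pth1r by edgeR (1.40 and 1.32) and DESeq2 (1.40 and 1.33). The count of 4 was 2 without control replicate 2 or without replicate 4 of the libraries labelled knockout. The calls over all genes were evenly divided, with 1732 of 3461 higher. Under a scaling by the summed value of genes other than muscle, blood and the 50 highest genes, chosen after seeing the data, 77.7% of 3495 calls were higher and 5 of the 9 genes were called. A whole joint was sampled, so more cells of a type and more RNA per cell cannot be told apart.

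**Figure D1:**
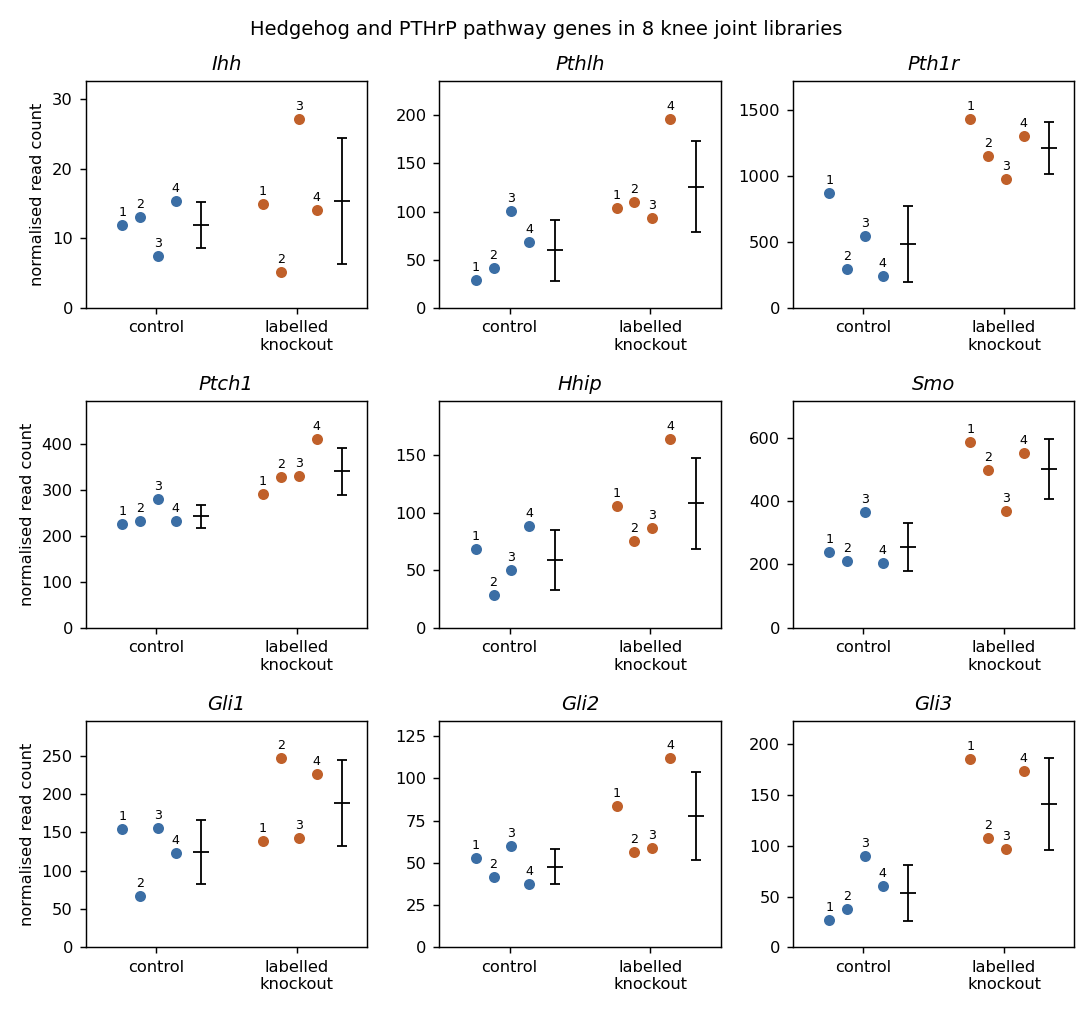
Normalised read count (vertical axis, from 0) of each of the 9 genes in the 4 control libraries (blue) and the 4 libraries labelled knockout (orange), with the replicate number at each point and the group mean ± SD as a black bar to the right of the points. The groups are separate for Pth1r, Ptch1, Smo and Gli3 and overlap for the other 5 genes.

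Promoter windows from RefSeq (GRCm38.p6, 250 bases before to 50 after a gene start) were listed for 8 of the 9 genes (not Gli1), in 10 windows. They were searched on both strands for the GLI binding motif GACCACCCA and its relaxed form GACCNCCCA, which every match of the first also matches, since hedgehog targets are among the genes. Neither was in any of the 10 windows, and over all 32851 windows the shares were 0.253% and 0.977%. The octamer TGACGTCA, the full cyclic AMP response element, was searched after the windows had been seen. It occurs in 1.79% of all windows and in 1 of the 10, that of Hhip, with its first base 75 bases before the start. The windows of Ptch1 and of the outermost annotated start of Pth1r, genes that rose, are shown beside that of Hhip, with the octamer in capitals, each 5′ to 3′ on the minus strand of the gene.
Ptch1, chr13:63565686-63565985: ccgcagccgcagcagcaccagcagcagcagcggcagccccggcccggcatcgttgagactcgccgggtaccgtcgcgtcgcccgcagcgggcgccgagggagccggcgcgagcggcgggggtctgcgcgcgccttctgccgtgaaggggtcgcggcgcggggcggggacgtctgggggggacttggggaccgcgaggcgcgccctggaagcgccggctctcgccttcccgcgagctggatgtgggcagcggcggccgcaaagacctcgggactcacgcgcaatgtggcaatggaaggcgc
Pth1r, chr9:110747096-110747395: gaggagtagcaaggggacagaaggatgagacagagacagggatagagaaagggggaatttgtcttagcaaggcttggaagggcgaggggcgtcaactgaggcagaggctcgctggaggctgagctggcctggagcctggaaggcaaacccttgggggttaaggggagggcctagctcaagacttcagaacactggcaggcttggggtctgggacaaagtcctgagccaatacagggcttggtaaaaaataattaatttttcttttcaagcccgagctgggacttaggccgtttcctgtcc
Hhip, chr8:80057959-80058258: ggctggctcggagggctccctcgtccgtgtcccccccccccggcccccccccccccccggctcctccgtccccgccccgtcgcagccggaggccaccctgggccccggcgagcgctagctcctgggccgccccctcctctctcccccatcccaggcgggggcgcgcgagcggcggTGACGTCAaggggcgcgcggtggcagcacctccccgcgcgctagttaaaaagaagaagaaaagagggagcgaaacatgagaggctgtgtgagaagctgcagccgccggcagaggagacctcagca
These letters describe the windows and show no binding.

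The ligand Ihh (chromosome 1, 74945315 to 74951672, minus strand) was scarce. Its normalised read count was 11.9, 13.1, 7.48 and 15.3 across control replicates 1 to 4, beside 15.0, 5.13, 27.2 and 14.1 in replicates 1 to 4 of the libraries labelled knockout. The lowest and the highest value both belonged to libraries labelled knockout, so the groups overlapped entirely. Its log2 difference was 0.18 (SE 0.48, limma adjusted p = 0.813), so that no difference in Ihh was detectable at this depth. Dhh, the desert hedgehog gene, was also scarce, at 10.3 ± 6.28 in control libraries and 9.58 ± 4.82 in those labelled knockout, and did not pass the filter.

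The PTHrP gene Pthlh (chromosome 6, 147252101 to 147264183, minus strand) had normalised read counts of 29.2, 41.4, 100.9 and 67.9 in control replicates 1 to 4. In the libraries labelled knockout it had 103.7, 109.5, 93.5 and 196.3. Control replicate 3 lay above replicate 3 of the libraries labelled knockout, and every other control library lay below all of them. The group means were 59.9 ± 31.8 and 126 ± 47.5, and the log2 difference of 1.15 (SE 0.38) did not pass the threshold (limma adjusted p = 0.0528). It was called by DESeq2 (adjusted p = 0.0246) and not by edgeR (adjusted p = 0.0694). Without control replicate 3 the log2 difference was 1.44 and the limma adjusted p was 0.0184.

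Pth1r, the receptor of PTHrP and of parathyroid hormone, had a difference close to that of Gli3, and these were the largest of the 9 genes by limma. Its locus (chromosome 9, 110722085 to 110747145, minus strand) faces Myl3, a myosin light chain gene that shares 95 (3.2%) of its 2925 exonic bases. The normalised read count of Pth1r was 873, 295, 541 and 241 across control replicates 1 to 4, beside 1434, 1155, 974 and 1302 in those labelled knockout. The groups were separate, and within the control group replicate 1 held more than 3 times as much as replicate 4. The mean rose from 487 ± 288 to 1216 ± 198 (log2 difference 1.49, SE 0.35, limma adjusted p = 0.0162). The call held whichever of the 8 libraries was omitted (log2 difference 1.21 to 1.83, limma adjusted p of at most 0.0483). Whether reads were counted by strand is not given, and Myl3, which was not called, had a log2 difference of the opposite sign, -1.22 (limma adjusted p = 0.203).

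Among the receptors and inhibitors of hedgehog, Ptch1 (chromosome 13, 63508328 to 63573598, minus strand) rose by the least. Its normalised read count was 225, 233, 279 and 233 in the control libraries and 292, 328, 330 and 412 in those labelled knockout, in the order of the replicate numbers. All control libraries but replicate 3 fell within a narrow band, and all 4 libraries labelled knockout lay above it. The mean rose from 243 ± 24.8 to 340 ± 50.7, a ratio of means of 1.40 (log2 difference 0.48, SE 0.13, limma adjusted p = 0.0260). The call went without control replicate 1, 2 or 4, and without replicate 2 or 4 of the libraries labelled knockout, where the limma adjusted p lay between 0.0520 and 0.0702, while the difference stayed between 0.38 and 0.55 in all 8 such fits.

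Hhip, whose product is a decoy that binds hedgehog ligands at the cell surface, is on chromosome 8 (79965851 to 80058006, minus strand). It had normalised read counts of 68.1, 28.3, 50.5 and 88.7 in the control libraries and 106, 75.3, 87.0 and 165 in those labelled knockout. Control replicate 4 lay above replicates 2 and 3 of the libraries labelled knockout. The log2 difference of 0.92 (SE 0.36) did not pass (limma adjusted p = 0.0891).

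Smo, the transducer that PTCH1 inhibits, had the smallest p-value of the 9 genes. The gene is on chromosome 6 (29735503 to 29761365, plus strand). Its normalised read count was 239, 211, 365 and 203 in the control libraries and 586, 499, 370 and 552 in those labelled knockout. The groups were separate, although control replicate 3 (365) and replicate 3 of the libraries labelled knockout (370) nearly touched. The mean rose from 254 ± 75.1 to 502 ± 95.1 (log2 difference 0.997, SE 0.205, limma adjusted p = 0.0107). Each fit that left out a library kept the call (log2 difference 0.90 to 1.18, limma adjusted p of at most 0.0368).

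Of the GLI factors, 1 of 3 was called. Gli3, which acts mainly as a repressor in the limb, rose from 53.6 ± 27.8 to 141 ± 45.1 (log2 difference 1.46, SE 0.37, limma adjusted p = 0.0207). Its normalised read count was 27.0, 37.3, 89.7 and 60.2 in the control libraries and 185, 108, 96.8 and 173 in those labelled knockout, so control replicate 3 came close to the lowest library labelled knockout. The gene is on chromosome 13 (15463235 to 15730026, plus strand). Leaving out control replicate 2 ended the limma call (adjusted p = 0.0591), as did leaving out replicate 1 (0.0548) or 4 (0.0647) of the libraries labelled knockout.

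Gli1, an activator that is itself induced by hedgehog signalling, was not called. The gene (chromosome 10, 127329882 to 127341974, minus strand) had normalised read counts of 155, 66.6, 155 and 123 in the control libraries and 139, 246, 142 and 226 in those labelled knockout. Replicates 1 and 3 of the libraries labelled knockout lay below control replicates 1 and 3, and replicates 2 and 4 lay well above them. Its log2 difference was 0.62 (SE 0.30, limma adjusted p = 0.157), and it was 0.34 without control replicate 2, the library with the lowest value. Gm47200 and Arhgap9 lie opposite parts of Gli1, which share 265 (5.3%) and 62 (1.2%) of its exonic bases.

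Gli2, the main activator of hedgehog target genes, did not pass either. On chromosome 1 (118834132 to 119053619, minus strand) it had normalised read counts of 53.0, 41.4, 59.8 and 37.2 in the control libraries and 83.8, 56.4, 58.7 and 112 in those labelled knockout. Control replicate 3 lay above replicates 2 and 3 of the libraries labelled knockout, and the log2 difference of 0.66 (SE 0.26) was not called (limma adjusted p = 0.0970).

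**Figure D2:**
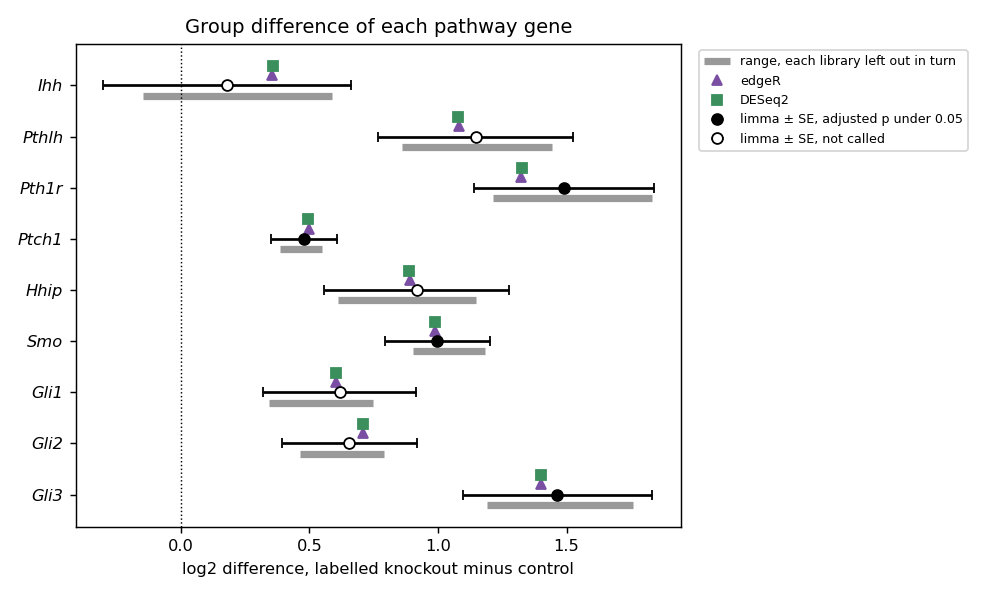
Log2 difference between the libraries labelled knockout and control (horizontal axis) for each of the 9 genes. Circles with bars are limma estimates ± SE, filled where the adjusted p is under 0.05, grey bands span the 8 fits that each left out a library, and triangles and squares are edgeR and DESeq2 estimates from recovered reads. Every estimate lies above 0 except the lower end of the band for Ihh, which reaches -0.15.

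Levels of different genes were compared only per length, as normalised reads per kilobase of annotated exon. Pth1r was the most abundant of the 9 genes in both groups, with 167 ± 98.6 per kilobase in control libraries and 416 ± 67.5 in those labelled knockout. Smo followed with 45.2 ± 13.4 and 89.3 ± 16.9, and Pthlh with 37.0 ± 19.6 and 77.7 ± 29.3. Pth1r lay above Smo in every library, whereas the ranges of Smo and Pthlh overlapped in both groups, at 36.1 to 64.9 and 18.04 to 62.4 per kilobase in the control libraries. Gli1 (25.0 ± 8.34 and 37.7 ± 11.2) and Ptch1 (17.1 ± 1.75 and 23.99 ± 3.58) came next, and their ranges also overlapped in both groups. Gli2, Hhip and Gli3 lay between 5.59 and 6.97 per kilobase in control libraries and between 11.3 and 14.7 in those labelled knockout. Their order differed between the groups, with Gli3 the lowest of these in the control group and the highest in the other, but the ranges overlapped in each. Ihh was last in both groups, at 3.92 ± 1.09 and 5.03 ± 2.97 per kilobase. Its range overlapped those of Gli3 and Hhip in the control group and those of Gli2 and Hhip in the other.

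Ratios within a library do not depend on how libraries are scaled, apart from the pseudocount of 1, and 4 of them were compared by two-sided exact permutation tests, whose smallest possible p is 0.0286. The log2 ratio of Gli1 to the fibroblast gene Pdgfra was -1.42, -1.90, -1.93 and -2.04 in the control libraries and -3.05, -2.16, -2.31 and -2.56 in those labelled knockout. The groups were separate, and Gli1 was lower relative to Pdgfra in each of the 4 libraries labelled knockout, compared with every control library (difference -0.69, exact permutation p = 0.0286, 0.114 adjusted over the 4 ratios). Pdgfra itself rose by a log2 of 1.31 (limma adjusted p = 0.0105).

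The log2 ratio of Ptch1 to Smo was -0.03 ± 0.27 in the control libraries and -0.55 ± 0.35 in those labelled knockout (n = 4, exact permutation p = 0.0571, 0.114 adjusted). That of Gli1 to Gli3 was 1.27 ± 0.81 and 0.43 ± 0.66 (n = 4, exact permutation p = 0.143, 0.190 adjusted), with control replicate 1 at 2.47 and the other control libraries between 0.783 and 1.014. That of Pth1r to Col2a1, the gene of the main cartilage collagen, was -0.59 ± 1.05 and 0.11 ± 0.58 (n = 4, exact permutation p = 0.229, 0.229 adjusted). None of the 4 passed 0.05 after adjustment, and the 3 ratios other than Gli1 to Pdgfra overlapped between the groups.

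**Figure D3:**
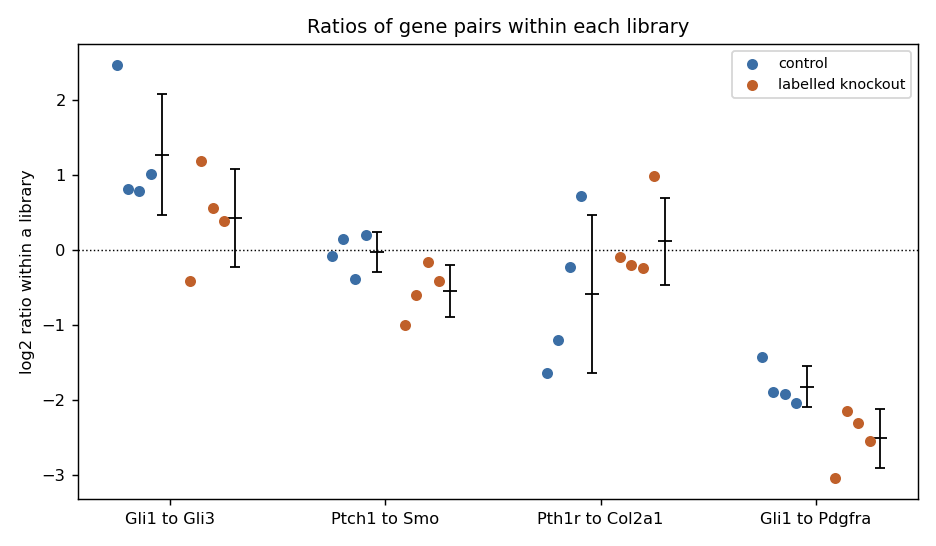
Log2 ratio of 2 genes within each library (vertical axis) for 4 gene pairs, with the 4 control libraries in blue, the 4 libraries labelled knockout in orange, and the group mean ± SD as a black bar beside the points. The groups are separate for Gli1 to Pdgfra and overlap for the other pairs.

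The libraries also differed in markers of the tissues of a joint, whose counts of calls stand beside 11.6% of all genes called higher and 11.6% called lower. Osteoblast markers summed to 14440 to 66088 normalised reads in the control libraries and 71478 to 106319 in those labelled knockout. Col1a1, a bone and fibroblast collagen gene, made up most of that sum in every library (13234 to 58034 and 63994 to 93111). Of the 12 genes, 5 were called higher and 0 lower, and 3 had separate groups. Fibroblast markers summed to 43324 to 119829 and 131555 to 226635, with 8 of 13 called higher and 0 lower, and macrophage markers to 1514 to 3711 and 5227 to 7213, with 7 of 9 called higher. Skeletal muscle markers summed to 2490412 to 2690503 in the control libraries and to 1214929 to 1689125 in those labelled knockout, with 8 of 18 called lower and 0 higher. Fat markers summed to 47494 to 66424 and 22996 to 43285, with 1 of 8, Car3, called lower. Cartilage markers overlapped between the groups, at 3831 to 11807 and 9749 to 13397, with 1 of 13 tested genes (Hapln1) called, higher. Of the 13 differences, 12 were above 0, with a median of 0.70. Mural cell markers summed to 63464 to 77621 and 42455 to 52065, with 1 of 7 (Cspg4) called higher and 1 (Des) lower. Although that sum was lower, 4 of the 7 differences were above 0, with a median of 0.09. Erythroid markers overlapped between the groups, at 16755 to 98968 and 4040 to 42558. No marker of these lists was at 0 in every library. Of the variance of a muscle marker score, 90.7% lay between the groups, and with that score as a covariate 0 genes of the whole table were called by limma (510 at an unadjusted p under 0.05), so the muscle score and the group label cannot be told apart. The part of the other marker shifts in the differences of the 9 genes was not tested.

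In the control group the osteoblast sum was highest in replicate 1 (66088), then replicate 3 (33389), with replicates 4 (15081) and 2 (14440) far below. Pth1r was likewise highest in replicate 1, then replicate 3, but was lowest in replicate 4 (241), below replicate 2 (295). Across replicates 1 to 4 of the libraries labelled knockout the osteoblast sum was 106319, 75473, 71478 and 87799. Pth1r there was 1434, 1155, 974 and 1302, so both fell in the order of replicates 1, 4, 2 and 3. Gli3 and Pthlh did not keep the order of the fibroblast sum, which in control replicates 1 to 4 was 75901, 46294, 119829 and 43324. Both genes were highest in control replicate 3, as that sum was, but lowest in replicate 1 and second highest in replicate 4. In replicates 1 to 4 of the libraries labelled knockout the fibroblast sum was 209029, 203020, 131555 and 226635. Among these, both genes were lowest in replicate 3, as that sum was. Pthlh was highest in replicate 4, as that sum was, and Gli3 in replicate 1. Over the 8 libraries the Gli2 profile was closest to those of Smo and Ptch1 among the 9 genes, differing from each by a root mean square of 0.29 on the log2 scale after each gene was centred on its own mean. Ihh and Pth1r were the farthest pair, at 1.13.

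**Figure D4:**
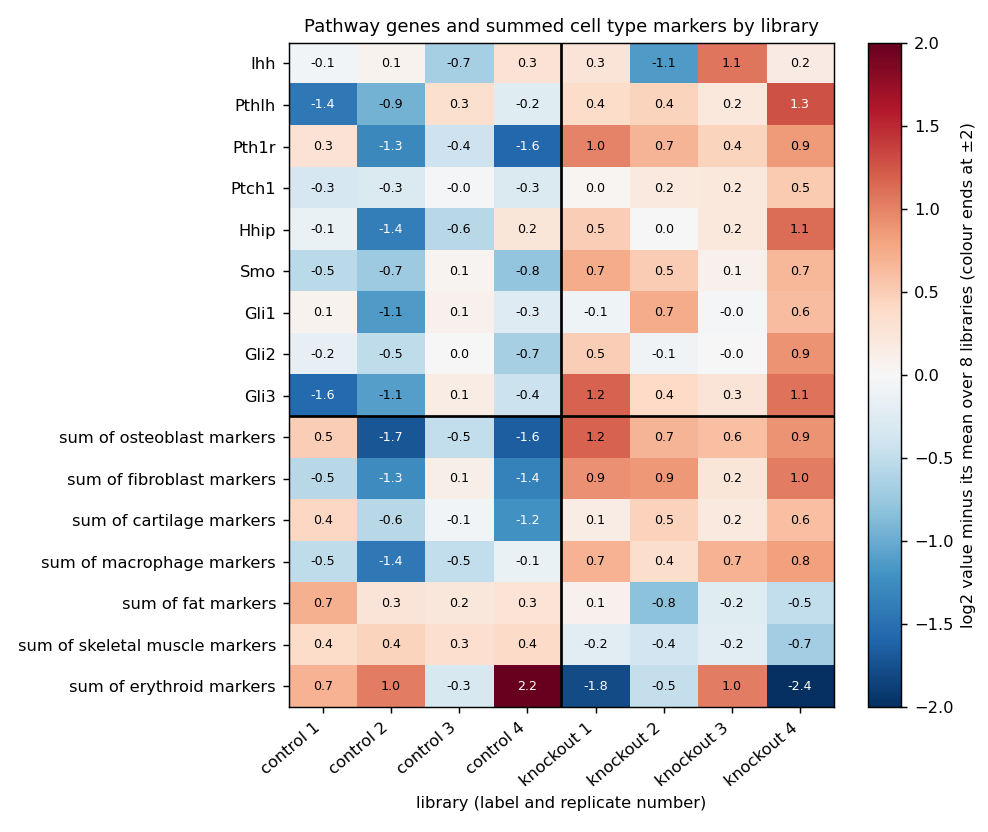
Log2 value of each of the 9 genes and of the summed markers of 7 cell types in each of the 8 libraries (columns), minus its mean over the libraries, in colour and as printed values (colour ends at ±2). A vertical line divides the control libraries from those labelled knockout, and the rows of Pthlh, Pth1r, Ptch1, Hhip, Smo and Gli3 are positive in all 4 libraries labelled knockout (Ptch1 from 0.03 and Hhip from 0.0058), as are the osteoblast, fibroblast, cartilage and macrophage sums.

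For 4 of the 9 genes, the genes of most similar profile were sought among 11638 tested genes with a mean of at least 50, by the same root mean square difference over the 8 libraries. Pth1r was closest to Creb3l1, an endoplasmic reticulum stress transducer (0.15), to Col1a1, the gene of a bone and fibroblast collagen chain (0.18), and to B4galnt1 (0.21), while the spread of Pth1r about its own mean was 0.92. Creb3l1 rose from 154 to 393 and Col1a1 from 28784 to 76510. Gli1 was closest to Pde5a (0.13), Podn (0.16) and Irak3 (0.16), none of which was called. Ptch1 was closest to Cttnbp2nl (0.05), Ski (0.07) and Uhrf2 (0.07) against a spread of its own of 0.28. The closest genes to Ihh, Gcnt1 (0.34), Olfr78 (0.34) and Nwd1 (0.35), were far from it by comparison, with Ihh itself spreading by 0.62.

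The other genes of the hedgehog pathway were described through lists of ligand release, co-receptors, signal transduction, ciliary transport and response genes. Their counts are read beside the 11.6% of all genes that rose, the 11.6% that fell and the median of 0.00. At the cell surface, 2 of 3 tested co-receptor genes rose and 0 fell, with a list median of 0.99. Boc, which helps hedgehog bind its receptor, rose from 142 ± 24.4 to 288 ± 72.1 (log2 difference 0.99, SE 0.21, limma adjusted p = 0.0115), with control libraries at 122 to 177 and those labelled knockout at 182 to 336. Gas1, another co-receptor, rose from 751 ± 112 to 1580 ± 700 (0.99, SE 0.25, limma adjusted p = 0.0201), and was not called without control replicate 2 (limma adjusted p = 0.0566). Cdon, also a co-receptor, had a log2 difference of 0.61 and was not called.

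Of the 6 tested genes of ligand processing and release, Scube1 was the 1 gene called, and the list median was 0.69. Scube1, which encodes a secreted protein of the family that helps lipid-modified hedgehog leave the cell, rose from 33.6 ± 12.3 to 118 ± 55.8 (log2 difference 1.72, SE 0.41, limma adjusted p = 0.0169). Without replicate 4 of the libraries labelled knockout it was not called (limma adjusted p = 0.0549). Disp1, a transporter that releases hedgehog, had a log2 difference of 0.71 and Gpc3, a glypican that binds it, 0.31, and neither was called.

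Of 24 signal transduction genes, 2 rose and 5 fell, and the median was 0.15. Iqce, whose product anchors a SMO-binding complex in the cilium, rose from 75.2 ± 6.27 to 131 ± 23.9 (log2 difference 0.78, SE 0.16, limma adjusted p = 0.0112). Kif7, a ciliary kinesin that controls GLI processing, also rose, from 44.2 ± 12.8 to 72.0 ± 9.002 (0.725, SE 0.233, limma adjusted p = 0.0487), although its groups overlapped. The genes that fell did so by little. Fbxw11 (log2 difference -0.30) and Spop (-0.32) encode ubiquitin ligase parts that act on GLI proteins and many others. Mgrn1 (-0.31) encodes a ligase that acts on SMO, and Gsk3b (-0.34) and Dyrk2 (-0.47) encode kinases (limma adjusted p = 0.0348 and 0.0304). The groups of Dyrk2 overlapped, with control replicate 1 at 845 and replicate 2 of the libraries labelled knockout at 860. Under the summed-value scaling, Fbxw11, Mgrn1 and Spop were no longer called (limma adjusted p = 0.196, 0.162 and 0.174), nor were they under quantile normalisation (log2 difference -0.23, -0.18 and -0.05, limma adjusted p = 0.0687, 0.148 and 0.705). Each was also lost without control replicate 2 (0.0544, 0.0558 and 0.0878) or replicate 4 of the libraries labelled knockout, and without at least 1 other library. The kinase genes Csnk1a1 (-0.20) and Grk2 (-0.08), whose products phosphorylate SMO among other proteins, were not called, and both differences turned positive under quantile normalisation (0.03 and 0.067).

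Ciliary transport genes, needed to carry SMO and GLI proteins in and out of the cilium, moved little, with 2 of 22 rising, 1 falling and a median of 0.15. The motor gene Kif3b (0.52) and Ift46 (0.52) rose and Ift172 (-0.37) fell, with limma adjusted p-values of 0.0235, 0.0239 and 0.0387, each lost without control replicate 2 or without replicate 2 or 4 of the libraries labelled knockout (limma adjusted p of 0.0624 to 0.105). Ift172 was also lost under the summed-value scaling (-0.22, limma adjusted p = 0.163), and Ift172 and Kif3b under quantile normalisation (0.0529 and 0.0537). Ift20 (0.44) and Ift122 (-0.27) were not called.

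Genes known to respond to hedgehog in some tissues, which also respond to other pathways, had a median of 0.99, with 5 of 13 tested genes rising and 0 falling. Snai1, a repressor of epithelial genes, rose from 65.9 ± 36.1 to 272 ± 73.2 (log2 difference 2.15, SE 0.36, limma adjusted p = 0.00581), and its control libraries lay at 29.6 to 116 against 205 to 344. Sfrp1, a secreted Wnt inhibitor, rose by 1.96 (limma adjusted p = 0.0125), and the cell cycle genes Ccnd2 and Cdk6 by 1.06 and 1.12 (limma adjusted p = 0.0141 and 0.0200). The call of Cdk6 was lost without control replicate 2 (0.0577) and without replicate 2 (0.0524) or 4 (0.0629) of the libraries labelled knockout. The groups of Ccnd2 overlapped, with control replicate 3 at 594 and replicate 3 of the libraries labelled knockout at 583. Ccnd1 (0.67) and Bcl2 (0.09) were not called.

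**Figure D5:**
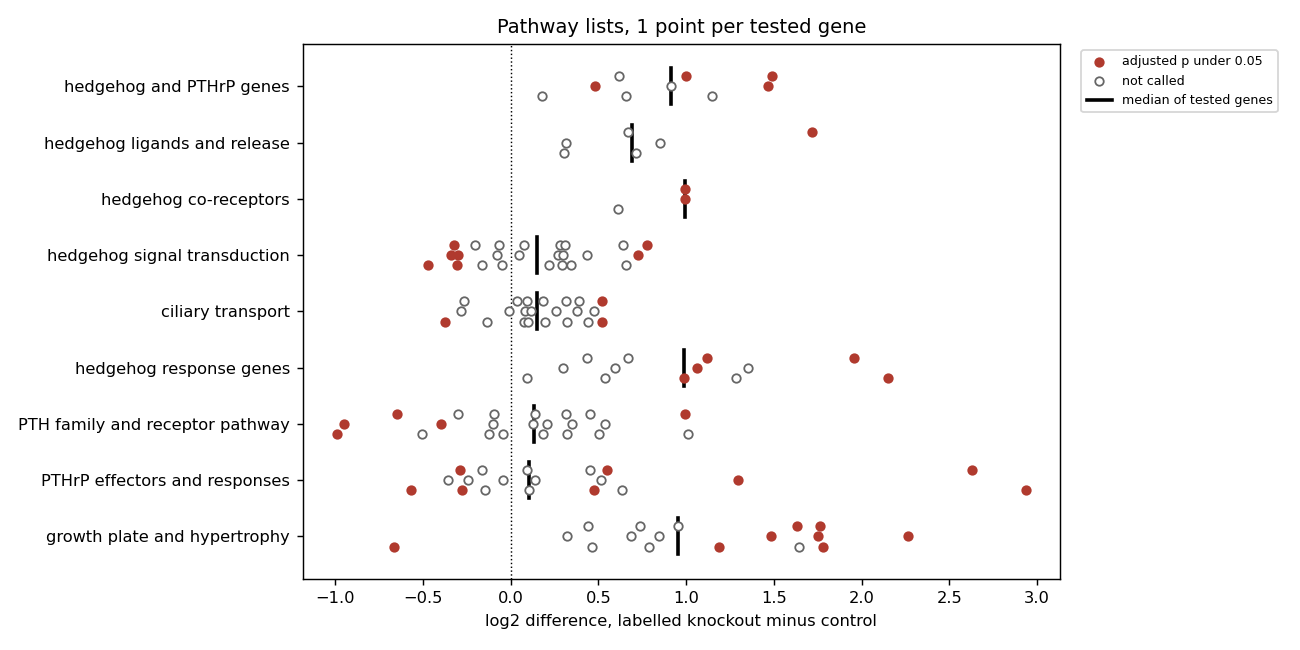
Log2 difference between the libraries labelled knockout and control (horizontal axis) for each tested gene of the 9-gene set and of 8 related lists, 1 point per gene, red where the limma adjusted p is under 0.05, with a black bar at the median of the list. Lists of surface and response genes have medians of 0.69 to 0.99, the growth plate list 0.95, and the remaining lists 0.10 to 0.15.

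Downstream of PTH1R, genes of G proteins and cyclic AMP signalling had a median of 0.13, with 1 of 22 rising and 4 falling, where 23.2% of all genes were called in either direction. Pde4d, a phosphodiesterase that breaks down cyclic AMP, fell from 1623 ± 201 to 837 ± 54.8 (log2 difference -0.95, SE 0.10, limma adjusted p = 0.00397). Adcy9, an adenylyl cyclase, fell from 564 ± 86.6 to 285 ± 48.7 (-0.99, SE 0.15, limma adjusted p = 0.00456). Genes of subunits of the cyclic AMP-dependent kinase, Prkar2a (-0.65) and Prkaca (-0.40), fell too (limma adjusted p = 0.00397 and 0.0122). Prkaca was not called under quantile normalisation (-0.22, limma adjusted p = 0.0777). The gene that rose was Adcy7, another adenylyl cyclase gene (log2 difference 0.995, SE 0.28, limma adjusted p = 0.0301), and its groups overlapped. Prkar1a (-0.10) and Atf4 (-0.10) were not called. Pth1r itself moved in the opposite direction to the 4 genes that fell and in the same direction as Adcy7. The part of the lower muscle markers in these falls was not tested.

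Genes that act in, or answer to, PTHrP signalling were divided, with 5 of 19 rising, 3 falling and a median of 0.10. Tnfsf11, which encodes the osteoclast-inducing cytokine RANKL, had normalised read counts of 15.1, 8.07, 8.41 and 2.19 in the control libraries and 89.8, 35.1, 34.8 and 53.7 in those labelled knockout (log2 difference 2.63, SE 0.51, limma adjusted p = 0.00917). Its lowest value labelled knockout was more than 2 times the highest control value. The collagenase gene Mmp13 rose from 1220 ± 975 to 7645 ± 4004 (2.93, SE 0.59, limma adjusted p = 0.00993), and its groups were separate as well. Nr4a2, an immediate early gene of cyclic AMP signalling, rose by 1.297 on the log2 scale (limma adjusted p = 0.0168). Its call was lost without replicate 4 of the libraries labelled knockout (0.0549) and with the replicate number as a block (0.0531).

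The transcription factor gene Mef2c, which drives hypertrophy when PTHrP signalling is low and is also a muscle gene, fell from 11071 ± 925 to 7473 ± 507 (log2 difference -0.57, SE 0.10, limma adjusted p = 0.00613), a call lost under quantile normalisation (adjusted p = 0.0959). The other genes of the list that fell were Hdac5 (-0.28, limma adjusted p = 0.0432) and Sik3 (-0.29, limma adjusted p = 0.0300). The groups of both were separate, and their calls were not followed through the other settings. The histone deacetylase gene Hdac4 (-0.16) and Mef2a (-0.24) were not called.

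Genes of the growth plate had a median of 0.95, with 7 of 17 tested genes rising and 1 falling. Those that rose included Fgfr3, a receptor that restrains chondrocyte growth (206 ± 65.8 to 582 ± 198, log2 difference 1.48, limma adjusted p = 0.00795), Dlx5 (1.76, 0.00833) and the phosphatase gene Alpl (1.19, 0.0200). Of the 7 genes, 4 (Runx2, Ibsp, Alpl and Sp7) are also in the osteoblast marker list, and Dlx5 too serves osteoblasts. The 5 tested genes shared with the cartilage marker list (Sox9, Col2a1, Acan, Matn3 and Ucma) were not called. Alpl was not called without control replicate 2 (0.0554) or 4 (0.0532) or without replicate 1 (0.0517) of the libraries labelled knockout. Sox6, a chondrocyte factor also expressed in muscle, fell by 0.67 on the log2 scale (limma adjusted p = 0.00561). The cartilage genes Col2a1 (0.79) and Chad (0.46) were not called. Col10a1, the collagen of hypertrophic chondrocytes, is named outside the rule because Ihh is made by cells near that stage. Its normalised read count was 56.2, 14.1, 108 and 61.3 in the control libraries and 809, 43.6, 35.9 and 424 in those labelled knockout, which overlapped (limma adjusted p = 0.257). The highest Ihh value (27.2) fell in the library with the lowest Col10a1 of its group. The lowest Ihh value (5.13) fell in replicate 2 of the libraries labelled knockout, where Col10a1 was next lowest (43.6). Ihh was scarce in every library, and a relation between these genes was not tested.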

How the data were processed

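Per the labels and the submitters' processing notes, reads were aligned to mm10 with HISAT2, counted per gene with featureCounts, and normalised and filtered with DESeq2; versions, annotation, strand setting and filter values are not given in the sources used here. The deposited values are a normalised signal, as the values show each gene's count divided by the library's size factor. In each of the 8 columns 100% of values were whole multiples (relative tolerance 0.001) of the column's own step, the value of 1 read, so reads could be recovered; the step was too close to 1 in control replicate 2 (1.009) and knockout replicate 1 (0.997) to be informative alone. Value columns not mapped to a sample numbered 0.

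Genes reaching 10 in 4 or more libraries were tested with limma 3.58.1 (trend) on log2(value + 1), a scale that understates changes of low genes, with group as the only term and Benjamini-Hochberg adjustment over all genes tested. edgeR 4.0.16 and DESeq2 1.42.0 were run on recovered reads. The fits were tested on simulated data. A planned account of members below the filter was void, as all 9 passed. Ratios were compared by exact permutation tests. Alternatives were other pseudocounts, filters and scalings, the replicate number as a block, a muscle score as covariate, and each library left out. Coordinates and exon lengths are from GENCODE M21 (GRCm38, as mm10), which matched 20520 of 20681 rows by symbol. The gene table has 12 repeated names, and 23 names that are whole numbers and were not named. Named were the 9 genes, Loxl2, and from each list at most 4 called genes of smallest p and the 2 most abundant not called. Kif7, Gsk3b, Dyrk2, Adcy7, Hdac5, Sik3, Dhh, Col10a1 and the marker and overlapping genes were named outside that rule, after their values were seen. Genes left out of the lists are not reported here. The members and lists were chosen with earlier results of these data known.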

Additional observations from a re-analysis of the deposited data

Results flagged for a closer look

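Among 110 groups of 4 libraries examined, 8 had a lowest or highest library whose gap to the nearest other, as a share of the group's range, was above Dixon's 95% critical value, and chance flags about 1 in 20 groups. Pthlh in knockout replicate 4 had 196 normalised reads, with the other libraries labelled knockout at 93.5 to 109. Ptch1 in control replicate 3 had 279, with the other control libraries at 225 to 233. Loxl2 in control replicate 3 had 1135, and Mef2c there was lowest of the control group at 9696. Iqce reached 166 in knockout replicate 4, and Ift46 was lowest of the control group in control replicate 2, at 234. The log2 ratio of Gli1 to Gli3 was 2.47 in control replicate 1, where Gli3 was lowest. The log2 ratio of Pth1r to Col2a1 was 0.98 in knockout replicate 4.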

How the results depend on the processing

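The direction of Pth1r, Hhip, Smo and Gli3 was kept under every alternative run, although Smo and Gli3 fell to 0.05 and 0.03 with the muscle score as a covariate. That of Pthlh, Gli1, Gli2 and Ptch1 was kept under every alternative but the fit with the muscle score. Of the 4 calls, Pth1r and Smo were kept under every other alternative. Ptch1 was also lost under quantile normalisation (limma adjusted p = 0.0529). The number of the 9 genes called was 3 to 5 over the other settings with all libraries and 2 to 5 without a library, with 2 without control replicate 2 or knockout replicate 4. All genes called numbered 1751 to 3841 without a library (control replicate 2 left out, 1887; control replicate 4, 2194; knockout replicate 4, 1751). With summed-value scaling, chosen after seeing the data, 77.7% of the 3495 calls were higher (1732 of 3461 as deposited), the median of all genes moved to 0.15, and Pthlh was called (adjusted p = 0.0369). Ihh had low values, under 10 in 2 of 8 libraries.

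With the replicate number as a block (replicate block), 2018 genes were called, with Pth1r, Smo and Hhip (adjusted p = 0.0341) among them, but not Gli3 (0.0503), Ptch1 (0.0569) or Prkaca (0.0527). Calls also lost in this limma fit were those of Loxl2 (0.0513), Nr4a2 (0.0531), Ift46 (0.0574), Mgrn1 (0.0638), Kif3b (0.0686), Fbxw11 (0.0691), Spop (0.0797) and Ift172 (0.0927). Same-numbered libraries deviated together in replicate 1 alone (correlations 0.213, -0.118, -0.233 and -0.063). With 1 correlation per number, these values cannot show whether the numbers pair the samples. Sign changes within pairs gave an exact permutation p of 0.125, the smallest possible, for Gli1 to Pdgfra (-0.69). Without a library that ratio was -0.81 to -0.52.

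The muscle score, of whose variance 90.7% lay between the groups, left 0 of all genes and 0 of the 9 called (510 at an unadjusted p under 0.05 by limma), and the cause was not tested. Under it these log2 differences changed sign: Pthlh (-1.24), Gli1 (-1.01), Gli2 (-0.36), Ptch1 (-0.34), Loxl2 (-1.82), Disp1 (-1.36), Gpc3 (-1.02), Gas1 (-0.13), Cdon (-0.92), Csnk1a1 (0.0746), Grk2 (0.30), Kif3b (-0.0765), Ift20 (-0.26), Ift122 (0.18), Ccnd2 (-0.55), Cdk6 (-0.97), Ccnd1 (-0.0544) and Sox6 (0.0292). Under quantile normalisation those of Ihh (-0.11), Csnk1a1 (0.0301), Grk2 (0.067), Bcl2 (-0.0259), Atf4 (0.13) and Prkar1a (0.0856) did, and under summed-value scaling those of Grk2 (0.0723), Atf4 (0.0526) and Prkar1a (0.0465). Without a library, Ihh ranged from -0.15 (knockout replicate 3 left out; -0.01 for control replicate 3) to 0.587, Bcl2 from -0.0319 (control replicate 3) to 0.258, and Grk2 from -0.15 to 0.0079 (control replicate 1). Of 27 other called genes named by the rule or as Loxl2, 13 were called in every setting but the muscle score.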
